A study of Homo sapiens with 6 samples.

Results

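Epithelial-mesenchymal transition (EMT) genes were read in SUM-LM1 breast cancer cells kept in floating culture and treated with activin B. The 10 genes were chosen by name, and comprised the transcription factors SNAI1, SNAI2, ZEB1 and ZEB2, the mesenchymal markers CDH2, VIM and FN1, and the epithelial genes CDH1, EPCAM and GRHL2. Every probe set that the annotation of the array assigned to these symbols was taken, which gave 26 of 54613 probe sets, for 10 of 19775 named genes. SUM-LM1 is a human line, selected in the lungs of mice from the breast cancer line SUM159, so all samples come from a single cell line. The activin B group held 3 biological replicates exposed to recombinant human activin B at 50 ng/ml for 6 h, and the vehicle group held 3 replicates given the albumin carrier alone over the same time. Cells of both groups were seeded at 12500 per ml on ultra-low attachment plates in serum-free HuMEC medium with albumin. RNA was hybridised to Affymetrix Human Genome U133 Plus 2.0 arrays, 1 per replicate.

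EMT is a program in which epithelial cells give up their junctions and polarity and take on the shape and motility of mesenchymal cells. Zinc finger factors of the SNAIL and ZEB families bind E-box sequences and repress CDH1, the gene of the adherens junction protein E-cadherin, whereas GRHL2 activates epithelial genes and opposes ZEB1. TGF-beta is a classical inducer of the program, and activins signal through the same receptor-activated SMAD proteins. The comparison asked what state the cells were in without ligand and whether activin B shifted it within hours.

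Signals are given as log2 values from robust multiarray averaging (RMA), in which a difference of 1 is a 2-fold difference, and each probe set is placed by the percentage of all probe sets with a lower mean in vehicle. The median probe set lay at 6.69 in vehicle. Probe sets differ in affinity, so signals of different probe sets were not set against each other as amounts of RNA, and signals under the median do not separate a rare transcript from none. The cells responded to the ligand: ID1, ID2, ID3, SMAD7 and SKIL each rose, each read from its brightest probe set. Their log2 changes were 0.63 to 2.85 (limma, largest adjusted p = 0.00142). For SKIL the brightest set was the 1 of 5 probe sets that passed, and the mean of its sets changed by 0.17 (adjusted p = 0.413). The published study had already listed ID1, ID2 and ID3 among the genes most induced by activin B, so their rise is no separate check. Which SMAD proteins carried the response was not tested. On the first principal component 1 array, activin B replicate 3, scored 21.7 against -10.6 to 5.70 for the other arrays. No member probe set passed with or without it. Of 9 keratins of the epithelial lineage 8 lay over the median probe set in vehicle, with means from 6.88 for KRT80 to 12.09 for KRT18, and KRT19 lay under it at 6.43. The hormone receptor genes ESR1 and PGR, markers of luminal breast cells, lay close to the median at 6.81 and 6.51. They do not stand for all breast markers read. Of 10 measured luminal and basal breast markers 8 lay over the median in vehicle, among them KRT8 at 9.002, ERBB2 at 7.96 and GATA3 at 7.45. None of 21 endothelial, leukocyte, hepatocyte or kidney markers passed. Their means ran from 6.10 to 8.09 in activin B and from 6.08 to 8.15 in vehicle. Over the median in vehicle lay 2 of 8 endothelial, 3 of 7 leukocyte and 3 of 6 hepatocyte and kidney markers. A place over the median therefore does not mark a lineage. In vehicle KRT5, KRT16, KRT19, KRT80, ESR1, PGR, ERBB2 and GATA3 lay within the range of these 21 markers, and KRT8 lay above it.

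None of the 26 member probe sets rose and none fell at an adjusted p under 0.05 by limma, against 0.121% of all probe sets in both directions (0.0732% rose and 0.0476% fell). The smallest adjusted p among the members was 0.206. At an unadjusted p under 0.05 there were 8 member probe sets, from 6 genes, of which 2 had a positive and 6 a negative log2 change; 5.28% of all probe sets reached that level. In 9 of the 26 (34.6%), from 7 genes, the activin B arrays all lay on 1 side of the vehicle arrays, above in 2 and below in 7, as they did in 9.79% of all probe sets (above in 4.91% and below in 4.89%). These shares were not tested, because the members were picked with earlier results of these data known and several probe sets read the same transcript. The median absolute log2 change was 0.050 over the members and 0.048 over all probe sets. With sign, the medians were -0.018 and -0.0012. Medians say little about the largest changes. All log2 changes of the members lay between -0.32 and 0.22, with standard errors of 0.060 to 0.085. The 95% intervals all lay between -0.48 and 0.36 and were not adjusted for the number of probe sets. They bound the change in signal. For the 10 member sets under the median probe set, a larger change of the transcript could be missed.

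**Figure D1:**
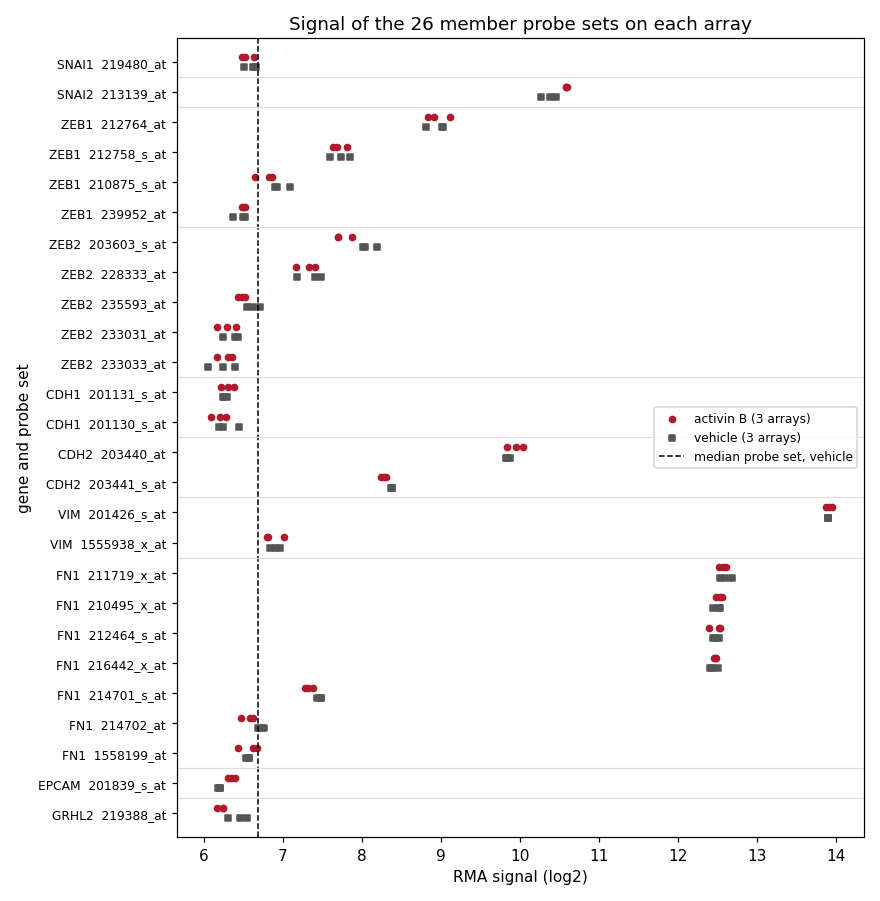
RMA signal (log2, horizontal axis) of each of the 26 member probe sets (vertical axis) on the 3 activin B arrays (red circles) and the 3 vehicle arrays (grey squares), with the median probe set of 6.69 as a dashed line. SNAI2, CDH2 and the main VIM and FN1 sets lie far to the right of the line, and CDH1, EPCAM, GRHL2 and SNAI1 lie to its left in both groups.

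Among the SNAIL factors, SNAI2 (Slug) was bright and SNAI1 (Snail) was dim. The single SNAI2 probe set read 10.60, 10.58 and 10.58 in activin B, against 10.27, 10.39 and 10.45 in vehicle, a vehicle mean higher than 95.7% of all probe sets. All activin B arrays were above all vehicle arrays, and they lay closer together. The log2 change was 0.22 ± 0.07 (SE; 95% interval 0.08 to 0.36), a difference of 16.5% on the linear scale, and did not pass (adjusted p = 0.590). With single arrays left out it ran from 0.17 to 0.26. The single SNAI1 probe set read 6.49, 6.53 and 6.64 in activin B, against 6.62, 6.51 and 6.66 in vehicle. The groups overlapped, with a log2 change of -0.05 ± 0.07 (SE; 95% interval -0.19 to 0.10; adjusted p = 0.999). SNAI1 is induced by TGF-beta in many epithelial cells; here its signal lay under the median probe set in every array, so a change of a rare transcript could be missed.

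ZEB1 and ZEB2 encode the pair of large zinc finger and homeodomain repressors that hold cells in the mesenchymal state. The annotation gave 4 probe sets for ZEB1 and 5 for ZEB2. The brightest ZEB1 set, 212764_at, read 9.12, 8.92 and 8.84 in activin B, against 9.02, 9.02 and 8.81 in vehicle. It lay above 88.1% of all probe sets and its groups overlapped (log2 change 0.01 ± 0.08, SE; 95% interval -0.17 to 0.18). The next, 212758_s_at, averaged 7.71 ± 0.09 in activin B and 7.73 ± 0.13 in vehicle (SD, n = 3 each), again with overlap. Another, 210875_s_at, was lower on all activin B arrays, at 6.83, 6.86 and 6.66 against 7.09, 6.91 and 6.93 in vehicle. Its log2 change of -0.20 ± 0.07 (SE) did not pass (adjusted p = 0.861). The dimmest, 239952_at, lay under the median probe set, at 6.51 ± 0.02 in activin B and 6.46 ± 0.08 in vehicle (SD, n = 3 each), with overlap and a log2 change of 0.05.

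ZEB2 held the member value with the smallest p. The brightest ZEB2 set, 203603_s_at, read 7.70, 7.88 and 7.70 in activin B, against 8.04, 8.19 and 8.02 in vehicle. Every activin B array was below every vehicle array. The log2 change was -0.32 ± 0.07 (SE; 95% interval -0.48 to -0.17), a difference of -19.9% on the linear scale, and did not pass (adjusted p = 0.206). The change ran between -0.38 and -0.27 when single arrays were left out, with adjusted p between 0.197 and 0.910. The second set above the median, 228333_at, read 7.17, 7.33 and 7.41 in activin B, against 7.18, 7.41 and 7.48 in vehicle. Its groups overlapped (log2 change -0.05 ± 0.08, SE). The other 3 ZEB2 sets lay under the median probe set. Set 235593_at read 6.43, 6.48 and 6.53 in activin B, against 6.54, 6.62 and 6.71 in vehicle, again lower on every activin B array, with a log2 change of -0.14 ± 0.07 (SE; adjusted p = 0.936). Sets 233031_at and 233033_at overlapped between the groups, with log2 changes of -0.06 and 0.05. Of the 5 sets, 4 had a negative change and 1 a positive one, and the mean of all ZEB2 sets changed by -0.11 (adjusted p = 0.878).

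The promoter regions of this repressor pair are shown because SNAIL and ZEB factors act through E-boxes, and because ZEB2 held the member probe set with the smallest p while the brightest set of its paralog ZEB1 overlapped between the groups. The 250 bases before each RefSeq transcript start (build GRCh38.p14, 5′ to 3′ on the strand of the gene) were searched for the E-box CAGGTG and its reverse complement CACCTG, in capitals below, on both strands. Of 7 ZEB1 starts the first (chr10:31318167-31318416, plus strand) holds 1 E-box, 57 to 52 bases before the start. The third holds 2 E-boxes and the other ZEB1 starts hold none. The only ZEB2 start (chr2:144520120-144520369, minus strand) holds none either. The first ZEB1 window and the ZEB2 window are printed.
ZEB1: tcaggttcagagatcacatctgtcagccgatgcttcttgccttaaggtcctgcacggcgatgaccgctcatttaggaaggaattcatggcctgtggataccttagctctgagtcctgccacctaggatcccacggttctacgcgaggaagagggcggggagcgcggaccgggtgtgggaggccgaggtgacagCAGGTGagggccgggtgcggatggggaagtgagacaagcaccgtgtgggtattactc
ZEB2: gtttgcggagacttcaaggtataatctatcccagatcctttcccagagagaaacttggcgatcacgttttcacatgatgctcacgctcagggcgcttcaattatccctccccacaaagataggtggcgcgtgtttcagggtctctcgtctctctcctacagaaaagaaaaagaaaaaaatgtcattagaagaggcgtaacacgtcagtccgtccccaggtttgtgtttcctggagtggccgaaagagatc
Of 12 such windows searched for 5 members (ZEB1, ZEB2, CDH2, VIM and FN1), 2 held this E-box, both at starts of ZEB1. Over all 35116 windows, counted without leaving out a chromosome, the share was 17.5%. SNAI2 and GRHL2 were left out of the search by their chromosome. No window was available for CDH1, EPCAM or SNAI1, so the E-boxes of CDH1 were not examined. A match describes letters in the window and shows no binding, and its relation to the changes in signal was not tested.

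Cadherins mark the 2 ends of the transition. CDH2, the gene of N-cadherin, which replaces E-cadherin on mesenchymal cells, had a bright set, 203440_at, at 9.95, 10.04 and 9.84 in activin B, against 9.88, 9.83 and 9.82 in vehicle. It lay above 93.7% of all probe sets, and the groups overlapped (log2 change 0.10 ± 0.07, SE; 95% interval -0.04 to 0.24; adjusted p = 0.995). The other CDH2 set, 203441_s_at, had the opposite sign, with 8.24, 8.28 and 8.30 in activin B, against 8.38, 8.39 and 8.37 in vehicle. There the activin B arrays were all lower, by 0.10 ± 0.06 (SE) on the log2 scale, and the adjusted p was 0.986. The 2 probe sets of CDH1, E-cadherin, were dim in both groups. Set 201131_s_at read 6.22, 6.38 and 6.32 in activin B, against 6.26, 6.25 and 6.30 in vehicle, and set 201130_s_at read 6.21, 6.29 and 6.09 in activin B, against 6.45, 6.19 and 6.25 in vehicle. These vehicle means were higher than only 15.4% and 17.8% of all probe sets. Both sets overlapped between the groups, with log2 changes of 0.04 and -0.10 of opposite sign.

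VIM, the intermediate filament protein vimentin, and FN1, the matrix glycoprotein fibronectin, carried the highest placed signals. The main VIM set, 201426_s_at, read 13.90, 13.87 and 13.95 in activin B, against 13.89, 13.89 and 13.90 in vehicle, above 99.9% of all probe sets. The groups overlapped, and the log2 change of 0.01 ± 0.06 (SE; 95% interval -0.12 to 0.14) left room for a fall of 7.91% or a rise of 10.2%. This signal lay close to the highest on the arrays, 14.22, and whether it was compressed there was not tested. The second VIM set, 1555938_x_at, of the kind that may cross-hybridise, lay at 6.88 ± 0.12 in activin B and 6.90 ± 0.06 in vehicle (SD, n = 3 each).

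FN1 had 7 probe sets. In the 4 bright ones the signals ran from 12.39 to 12.61 in activin B and from 12.40 to 12.68 in vehicle, and all 4 overlapped between the groups. Their log2 changes lay between -0.03 and 0.02, with 95% intervals inside -0.17 to 0.16. Sets 211719_x_at, 210495_x_at and 216442_x_at among them are also of the kind that may cross-hybridise. A pair of dimmer FN1 sets was lower on every activin B array: 214701_s_at at 7.39, 7.32 and 7.28 against 7.48, 7.49 and 7.43 in vehicle, and 214702_at at 6.47, 6.62 and 6.59 against 6.76, 6.73 and 6.69 in vehicle. Their log2 changes of -0.14 ± 0.06 and -0.17 ± 0.06 (SE) did not pass (adjusted p = 0.934 and 0.880). The remaining set, 1558199_at, lay under the median probe set and overlapped. Which transcript forms of FN1 each set reads is not given in the sources used here.

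EPCAM and GRHL2, epithelial genes, lay under the median probe set in both groups. EPCAM, a surface adhesion protein used to sort epithelial cells, read 6.32, 6.35 and 6.40 in activin B, against 6.18, 6.21 and 6.21 in vehicle, where it was higher than 9.08% of all probe sets. The activin B arrays were all above the vehicle arrays, by 0.16 ± 0.06 (SE; adjusted p = 0.878) on the log2 scale. GRHL2, a grainyhead factor that keeps epithelial genes active, read 6.17, 6.25 and 6.25 in activin B, against 6.32, 6.54 and 6.46 in vehicle. Its arrays were all lower with activin B, by 0.22 ± 0.07 (SE; adjusted p = 0.691). So the pair differed in sign. RMA is known to compress differences at signals this low, and neither value passed.

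**Figure D2:**
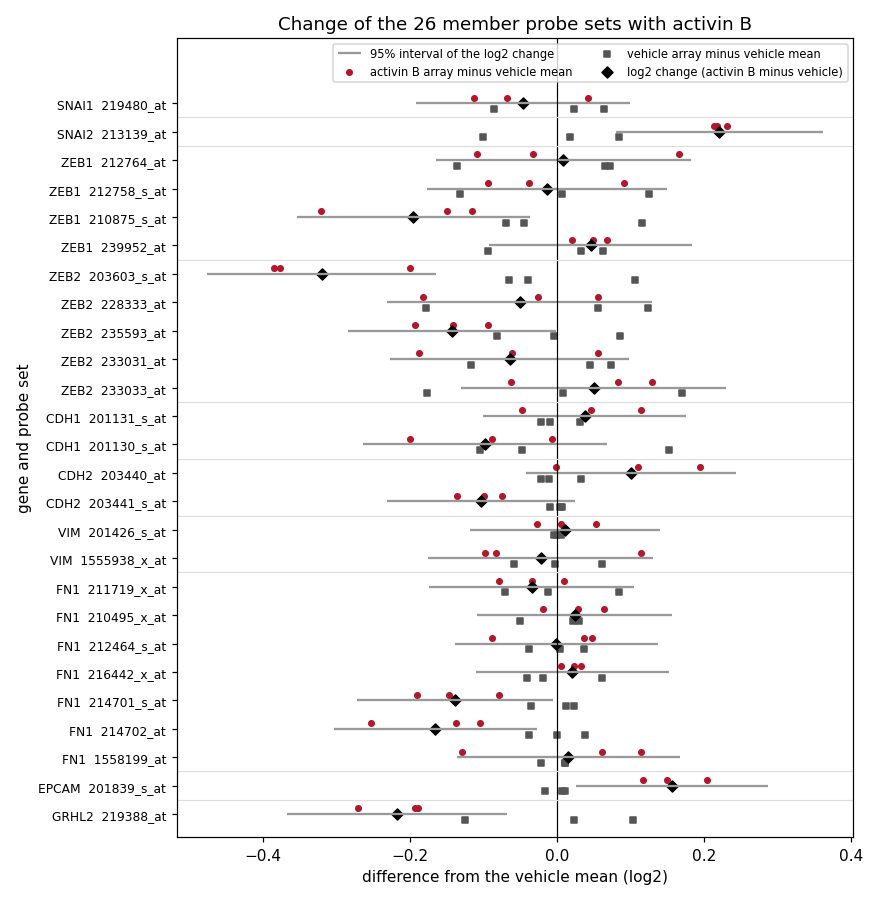
Difference from the vehicle mean (log2, horizontal axis) of each member probe set (vertical axis), with activin B arrays as red circles, vehicle arrays as grey squares, the log2 change as a black diamond and its 95% interval from limma as a bar. The ZEB2 set 203603_s_at lies lowest at -0.32 and SNAI2 highest at 0.22; no probe set passed.

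Where a gene had several probe sets, the log2 change of the set with the smallest p can be set beside that of the brightest other set of the same gene. For ZEB2 the changes of 203603_s_at and 228333_at differed by -0.27, for ZEB1 those of 210875_s_at and 212764_at by -0.20, and for CDH2 those of 203441_s_at and 203440_at by -0.20. For CDH1, FN1 and VIM the differences were -0.14, -0.13 and -0.03. These 6 differences are a description with no test, because 1 set of each pair was picked by its p and because an exact permutation test of 3 against 3 arrays cannot give a two-sided p under 0.1. Whether the sets of a gene differ in their change is not settled by these arrays.

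Other genes of the program were read from 8 lists, with the brightest probe set (mean of the 6 arrays) standing for the gene. Of 124 measured genes on these lists 1 rose, 2 fell and 121 did not pass, against 0.101% of all named genes that rose and 0.091% that fell. Their median log2 change was 0.012, and that of all genes was -0.0017.

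TCF4 was the 1 gene that rose, in the list of other EMT transcription factors. TCF4 (also called E2-2) is a class I basic helix-loop-helix factor, an E protein that binds E-boxes, and E proteins are the partners that ID proteins sequester. Its set 212386_at read 9.69, 9.74 and 9.70 in activin B, against 9.25, 9.43 and 9.35 in vehicle, with no overlap (log2 change 0.37 ± 0.07, SE; adjusted p = 0.0476). A second set, 213891_s_at, read 9.34, 9.50 and 9.55 in activin B, against 9.01, 8.996 and 9.12 in vehicle, and rose too (log2 change 0.42 ± 0.07, SE; adjusted p = 0.0285). All 8 TCF4 sets had a positive log2 change, from 0.03 to 0.42, and in 4 the groups did not overlap. The call of 212386_at ended without any single array (adjusted p from 0.100 to 0.290) and with the mean of all TCF4 sets (log2 change 0.25; adjusted p = 0.271). Of the other 13 measured factors none passed and the median over the list was 0.05. HMGA2, SOX4 and FOSL1, which act upstream of or beside the SNAIL and ZEB factors, had log2 changes of 0.23, 0.25 and 0.20 (adjusted p = 0.474, 0.492 and 0.777).

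**Figure D3:**
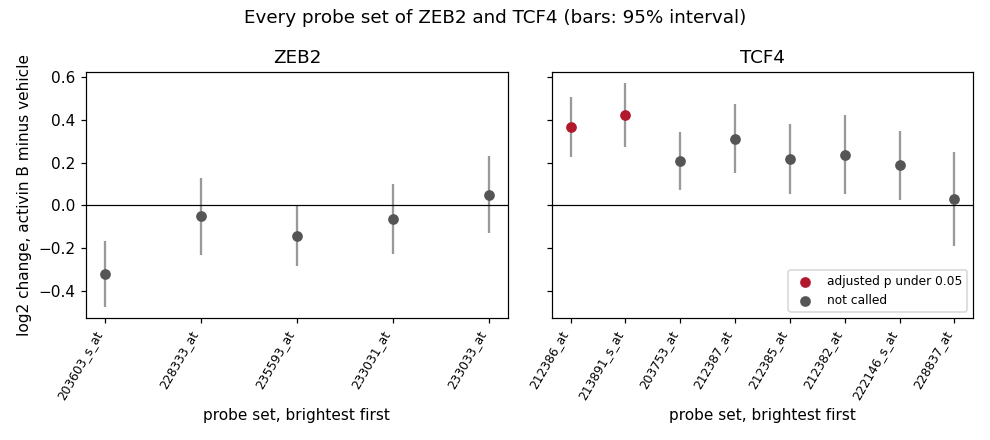
Log2 change, activin B minus vehicle (vertical axis), of every probe set of ZEB2 (left) and TCF4 (right), brightest first on the horizontal axis, with 95% intervals from limma as bars and red for an adjusted p under 0.05. All 8 TCF4 points are above 0 and 2 are red; 4 of 5 ZEB2 points are below 0 and none is red.

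Epithelial genes outside the members held both falls. Of 12 epithelial gatekeepers, factors that keep the epithelial program active, none passed. The lowest was EHF, an ETS factor of epithelia, at 9.66, 9.77 and 9.85 in activin B, against 9.97, 10.15 and 10.24 in vehicle. All activin B arrays were lower (log2 change -0.36 ± 0.08, SE; adjusted p = 0.156), and all 6 EHF sets had a negative change, from -0.36 to -0.06. The zinc finger factor KLF5 and the GRHL2 paralog GRHL3 had log2 changes of 0.16 and 0.13 (adjusted p = 0.957 and 0.978). Of 26 junction and surface genes CLDN1, a claudin of tight junctions, fell in both of its sets, by 0.49 and 0.55 on the log2 scale (adjusted p = 0.0112 and 0.00781). In the brighter set the call was lost when the second array of either group was left out, with an adjusted p of 0.0554 without activin B replicate 2 and of 0.131 without vehicle replicate 2. JUP, the junction protein plakoglobin, PKP2, a desmosomal plakophilin, and DSC2, a desmosomal cadherin, had log2 changes of -0.20, -0.12 and 0.12 (adjusted p = 0.778, 0.959 and 0.988). Of 9 epithelial keratins KRT15, found in basal epithelium, fell to 7.82, 7.93 and 7.93 in activin B, against 9.03, 8.92 and 8.89 in vehicle (log2 change -1.05 ± 0.07, SE; adjusted p = 1.13e-06). The basal keratin KRT5, KRT18 and KRT14 had -0.21, -0.10 and 0.08 (adjusted p = 0.801, 0.988 and 0.995). The medians of these lists were -0.01, 0.01 and -0.03, and CLDN1 and KRT15 were the only genes of these lists that passed.

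Like VIM, FN1 and CDH2, the mesenchymal genes of the other lists did not pass. Of 17 cytoskeleton and surface genes the smallest p belonged to S100A4, a calcium-binding protein of motile cells, with a log2 change of -0.23 ± 0.07 (SE; adjusted p = 0.480), and the median was 0.01. ITGAV, an integrin subunit, and PDGFRB, a receptor of mesenchymal cells, had 0.14 and -0.17 (adjusted p = 0.934 for both). Of 22 matrix genes and enzymes the fibrillar collagen COL3A1, the matricellular protein CCN2 and the fibrillar collagen COL1A1 had the smallest p, with log2 changes of -0.22, 0.19 and 0.20 (adjusted p = 0.522, 0.874 and 0.914) and a list median of 0.02. So neither list held a gene that rose.

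The partners of cadherins and the signal and repressor partners of the factors did not pass either. Of 7 cadherin partners NECTIN2, a nectin of cell contacts, AFDN (afadin), which ties nectins to actin, and the alpha-catenin CTNNA2 had the smallest p, with log2 changes of -0.17, -0.19 and -0.14 (adjusted p = 0.880, 0.934 and 0.959), and the list median was -0.09. Of 17 signal and repressor partners FBXW7, a ubiquitin ligase subunit, and the ligands TGFB1 and TGFB2 had -0.25, 0.15 and 0.11 (adjusted p = 0.592, 0.934 and 0.995), with a median of 0.02.

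**Figure D4:**
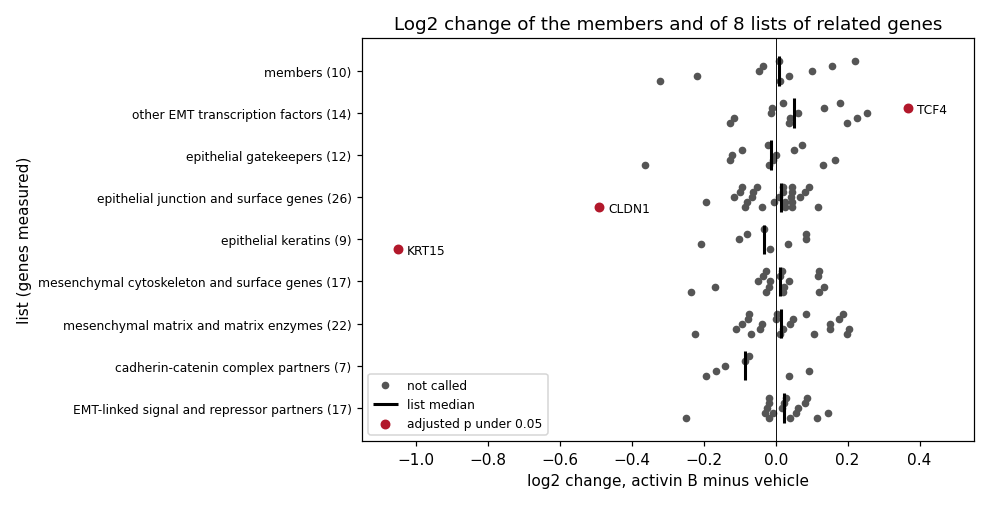
Log2 change, activin B minus vehicle (horizontal axis), of the 10 members and of the measured genes of 8 lists (vertical axis, genes measured in brackets). Points are genes read from their probe set of highest mean, red at an adjusted p under 0.05, and black bars are list medians; the red points are TCF4 at 0.37, CLDN1 at -0.49 and KRT15 at -1.05.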

How the data were processed

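The deposited table held log2 values per probe set and array, made by the authors with robust multiarray averaging (RMA) in Chipster, and was used as it was. This step equalizes the distributions of the arrays, so a change shared by most transcripts would be removed. The scanner files, detection calls and scan dates were not used here. The test covered 54613 probe sets, without the 62 controls of the array. Probe sets were named by the platform annotation (41091 with 1 symbol, 1801 with several, 11721 unnamed here), and symbols were checked by gene identifier against RefSeq GRCh38.p14, which changed none.

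Groups and replicates came from the sample titles. Activin B was compared with vehicle by limma 3.58.1 in R 4.3.3 (residual degrees of freedom 4, prior 10.8), an empirical Bayes test of 2 groups as in the published methods. Benjamini-Hochberg adjustment ran across the whole table, and a call needed an adjusted p under 0.05. The p values rest on the spread among these arrays, and their number, 3 per group, limits the precision (median standard error of a change 0.069 on the log2 scale). Steps were tested on simulated data.

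The members, lists and rules were chosen with earlier results of these data known. The genes named are all members, the response genes ID1, ID2, ID3, SMAD7 and SKIL, and, per list, every called gene and up to 3 further genes of smallest p. ESR1 and PGR are given as defining markers. KRT8, ERBB2, GATA3, KRT16, KRT19, KRT80, all probe sets of TCF4 and EHF and the second set of CLDN1 were added after their values were seen. For 11 of the 135 genes on the 8 lists no probe set was found by symbol, and they were not analysed here. Alternatives were a replicate block, 2 minimum signals, quantile normalization, cyclic loess or median centring of the arrays, a trend or robust prior, array weights, leaving out each array, and other ways to represent a gene by its probe sets. Figures were drawn with matplotlib 3.10.9.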

Additional observations from a re-analysis of the deposited data

How the results depend on the processing

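No member probe set passed under any of the 15 alternatives run on probe sets. The 2 minimum signals removed dim member sets before the test, among them those of SNAI1, CDH1, EPCAM and GRHL2, so those alternatives say nothing about them. With the replicate number as a block, the ZEB2 set 203603_s_at had an adjusted p of 0.0631, SNAI2 0.415 and GRHL2 0.401. Samples with the same number were not labelled as sharing an origin, and their deviations from the group means correlated at 0.16, 0.04 and 0.19. Scores on the first principal component rose with the number in both groups. They were -9.10, -1.67 and 21.7 in activin B and -10.6, -5.98 and 5.70 in vehicle. Whether samples of the same number share a preparation was not tested. The block gave 44 falling probe sets over the array, against 26 without it, and brought EHF under the threshold (adjusted p = 0.0279). Restricting the test to a mean signal of 7.5 or more lowered the count of rising probe sets to 24. Leaving out single arrays gave 25 to 50 rising probe sets, against 40 with all arrays, and 7 to 26 falling ones, against 26. TCF4 was no longer called, so that 0 genes of the other EMT lists rose, with probe sets above the median or of mean 7.5 or more (adjusted p = 0.0660 and 0.0506, fewer probe sets tested), with the mean of all its sets, or without any single array. Without single arrays, 1 to 2 genes of these lists fell, against 2 with all arrays.

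Signs of values near 0 changed. With single arrays left out, the log2 change ran from -0.071 to 0.066 for ZEB1 212764_at, -0.080 to 0.049 for 212758_s_at and -0.0021 to 0.076 for 239952_at. It ran from -0.14 to 0.015 for ZEB2 228333_at, -0.039 to 0.13 for 233033_at and -0.00077 to 0.080 for CDH1 201131_s_at. For VIM it ran from -0.011 to 0.029 (201426_s_at) and -0.091 to 0.015 (1555938_x_at). For FN1 it ran from -0.070 to 0.0070 (211719_x_at), -0.0012 to 0.046 (210495_x_at), -0.026 to 0.042 (212464_s_at), -0.00044 to 0.051 (216442_x_at) and -0.034 to 0.087 (1558199_at). Array weights gave 0.0095 for VIM 1555938_x_at and 0.013 for FN1 212464_s_at, and for this FN1 set median centring gave 0.0026 and cyclic loess 0.00094. The mean of all probe sets gave -0.039 for ZEB1, -0.031 for CDH1, -0.0016 for CDH2 and -0.0061 for VIM, each opposite in sign to the brightest set. The cause of these changes was not tested. Dim signals, as of CDH1, EPCAM, GRHL2 and SNAI1, limit what could be detected.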
